A study of Mus musculus with 6 samples.

Results

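A set of 36 cell cycle and DNA replication genes was read in liver RNA of 2-yr-old male mice, 3 WT and 3 CgA-KO, with the question whether Mcm10 moved with the rest of the set. The members were named by symbol, as replication licensing genes (10 genes), S phase genes (5), cyclins (8) and mitosis genes (13). All 36 were found among the 32212 rows of the count table, and none of them shared its symbol with another row. CgA-KO mice lack chromogranin A (CgA), the prohormone that Chga encodes. WT and CgA-KO mice were both of C57BL/6 background, ate the same normal chow and lived in cycles of light and dark. One poly(A) library was made per liver, so that 6 mice gave 6 libraries, and the design holds no female mice. Whole liver was used, and fewer cells of a type cannot be told apart from less RNA per cell in such samples.

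Cells copy their DNA once per division. During G1, the helicase made of Mcm2 to Mcm7 is loaded onto origins with the help of Cdc6 and Cdt1, which geminin (Gmnn) restrains, and Mcm10 takes part when the loaded helicase is switched on. Cyclins of the D and E types lead into S phase, cyclins of the A and B types with Cdk1 lead through G2 into mitosis, and Wee1 holds Cdk1 in check. Most hepatocytes of an adult liver are out of the cycle, and polyploid cells are common there. Genes of S phase and of mitosis are also known to carry different elements in their promoters: E2F sites in the former, and the cell cycle genes homology region (CHR), often with CCAAT boxes, in the latter.

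The promoters of 4 members are shown because they carry these elements in different ways. Mcm10, Bub1b and Plk1 are the members of smallest adjusted p for which a window was at hand, and Mcm3 was added after its values were seen, as a gene of the loaded helicase. Each window runs from 250 bases before to 50 bases after the start site in RefSeq's GRCm38.p6, written 5′ to 3′ on the strand of the gene. They lie at chr2:5012742-5013041 on the minus strand (Mcm10), chr1:20820263-20820562 on the minus strand (Mcm3), chr2:118597961-118598260 on the plus strand (Bub1b) and chr7:122159185-122159484 on the plus strand (Plk1). Capitals mark exact matches, on either strand, to the searched letters: TTTCCCGC, TTTCGCGC, TTTGCCGC and TTTGGCGC for E2F, TTTGAA and TTCGAA for CHR, and CCAAT.
Mcm10: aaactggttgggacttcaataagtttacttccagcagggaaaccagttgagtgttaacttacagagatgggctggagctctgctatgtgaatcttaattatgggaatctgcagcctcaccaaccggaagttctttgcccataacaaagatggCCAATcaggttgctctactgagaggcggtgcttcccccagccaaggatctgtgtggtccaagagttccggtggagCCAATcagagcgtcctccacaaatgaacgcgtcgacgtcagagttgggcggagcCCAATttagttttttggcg
Mcm3: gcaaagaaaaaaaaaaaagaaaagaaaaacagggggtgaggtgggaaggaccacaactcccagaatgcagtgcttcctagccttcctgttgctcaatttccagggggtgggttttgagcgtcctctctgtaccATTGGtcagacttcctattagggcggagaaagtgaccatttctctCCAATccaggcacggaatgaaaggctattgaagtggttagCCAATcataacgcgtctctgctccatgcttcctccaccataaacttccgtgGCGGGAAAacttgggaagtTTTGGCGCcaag
Bub1b: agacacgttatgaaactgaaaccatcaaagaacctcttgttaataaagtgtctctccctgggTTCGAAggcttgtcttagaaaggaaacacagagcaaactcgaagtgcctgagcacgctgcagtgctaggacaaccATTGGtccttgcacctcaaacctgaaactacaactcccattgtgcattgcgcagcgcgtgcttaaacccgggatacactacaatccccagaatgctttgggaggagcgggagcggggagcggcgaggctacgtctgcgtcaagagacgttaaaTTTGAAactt
Plk1: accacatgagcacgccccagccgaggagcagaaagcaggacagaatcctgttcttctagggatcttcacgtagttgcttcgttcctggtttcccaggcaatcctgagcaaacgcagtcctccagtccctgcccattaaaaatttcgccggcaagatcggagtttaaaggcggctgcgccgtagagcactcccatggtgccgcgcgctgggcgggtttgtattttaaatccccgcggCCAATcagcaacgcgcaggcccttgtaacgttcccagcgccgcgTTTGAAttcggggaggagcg

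The Mcm10 window held 3 CCAAT matches, at 98 and 23 bases before and 31 bases after the start, and no match to the E2F or CHR letters. No match says only that these letters do not stand whole in this window. The Mcm10 window ends in tttggcg, the start of the searched TTTGGCGC, so a match crossing its end would be missed. The Mcm3 window held 2 E2F matches, 19 and 38 bases after the start, and 3 CCAAT matches. In Bub1b, CHR letters stood 188 bases before and 40 bases after the start, and in Plk1 they stood 30 bases after it. Windows were at hand for 27 of the 36 members. Those of Ccna2, Ccnd1, Ccnd2, Ccne2, Gmnn, Mcm4, Wee1, Aurkb and Foxm1 were not used here. E2F letters were found in 6 of 8 licensing windows (Mcm3, Mcm5, Mcm6, Mcm7, Cdc6 and Cdt1) in 1 of 10 mitosis windows (Cdk1), in 0 of 5 S phase windows and in 0 of 4 cyclin windows, against 2.26% of 32851 RefSeq windows of the same length. CHR letters were found in 9 of 10 mitosis windows, with Birc5 as the exception, and in 2 of 8 licensing windows (Mcm2 and Mcm7), in 1 of 4 cyclin windows (Ccnb2) and in 0 of 5 S phase windows, against 19.2% of all windows. CCAAT was found in 20 of the 27 windows, against 37.4% of all. TTCGAA reads the same on both strands and was counted once, and matches to different strings may share bases at their ends. A match is a description and not a bound site.

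The libraries held between 10558616 and 31087453 counts, and WT 1 was the shallowest. Chga had 0 counts in all 6 libraries, so the knocked-out gene was not detectable in WT liver either and cannot check the labels. Levels are CPM, counts scaled to a common library size, after correction by edgeR's TMM factors, with the SD over 3 livers. Folds and p-values come from edgeR's quasi-likelihood test over 13867 genes with Benjamini-Hochberg adjustment, and a gene is called at an adjusted p under 0.05. The ± after a log2 fold change is its standard error. The floor of 3 counts lay between 0.0951 and 0.269 CPM, for counting error only. An exact permutation test of 3 livers against 3 cannot go below p = 0.1, and members whose libraries did not overlap between genotypes reached that value. Hepatocytes are the main cell of the liver. Their markers summed to 55530, 93308 and 71255 CPM in WT and 58889, 80269 and 45750 CPM in CgA-KO livers. Of 7 tested, 6 were fitted lower in CgA-KO livers and 0 were called by edgeR. Of the same 7, 1 was at an unadjusted p under 0.05 and 1 was called by DESeq2.

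Mcm10 did not move with the rest of the set. It fell 4.54-fold in CgA-KO livers, and Wee1, the inhibitor of Cdk1, fell 7.32-fold, while 28 of the other 34 members were fitted higher. The members that rose were 3 cyclins (Ccnd2, Ccna2 and Ccnb1) and 4 mitosis genes (Top2a, Bub1, Bub1b and Plk1). In all, 9 of 36 members (25%) were called by edgeR, 7 higher and 2 lower, beside 12.4% of all genes tested, 8.60% higher and 3.84% lower. Of these 9, 6 were over the filter's cutoff in fewer than 3 WT libraries and passed through the CgA-KO libraries. The members were also chosen with earlier results of these data known. The median log2 fold change was 1.09 over the members and -0.01 over all genes tested. With at least 10 counts in every library, which left 26 members, it was 0.41. At an unadjusted p under 0.05 there were 21 members, beside 29.1% of all genes. The libraries of the genotypes did not overlap in 18 members, beside 33.6% of genes tested. The CgA-KO libraries all lay above the WT libraries in 16 of these, beside 2639 of 13867 genes tested, and all below in 2, beside 2018. DESeq2, the tool that the study's methods name, called 14 members, which include all 9 of edgeR, beside 17.2% of genes.

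**Figure D1:**
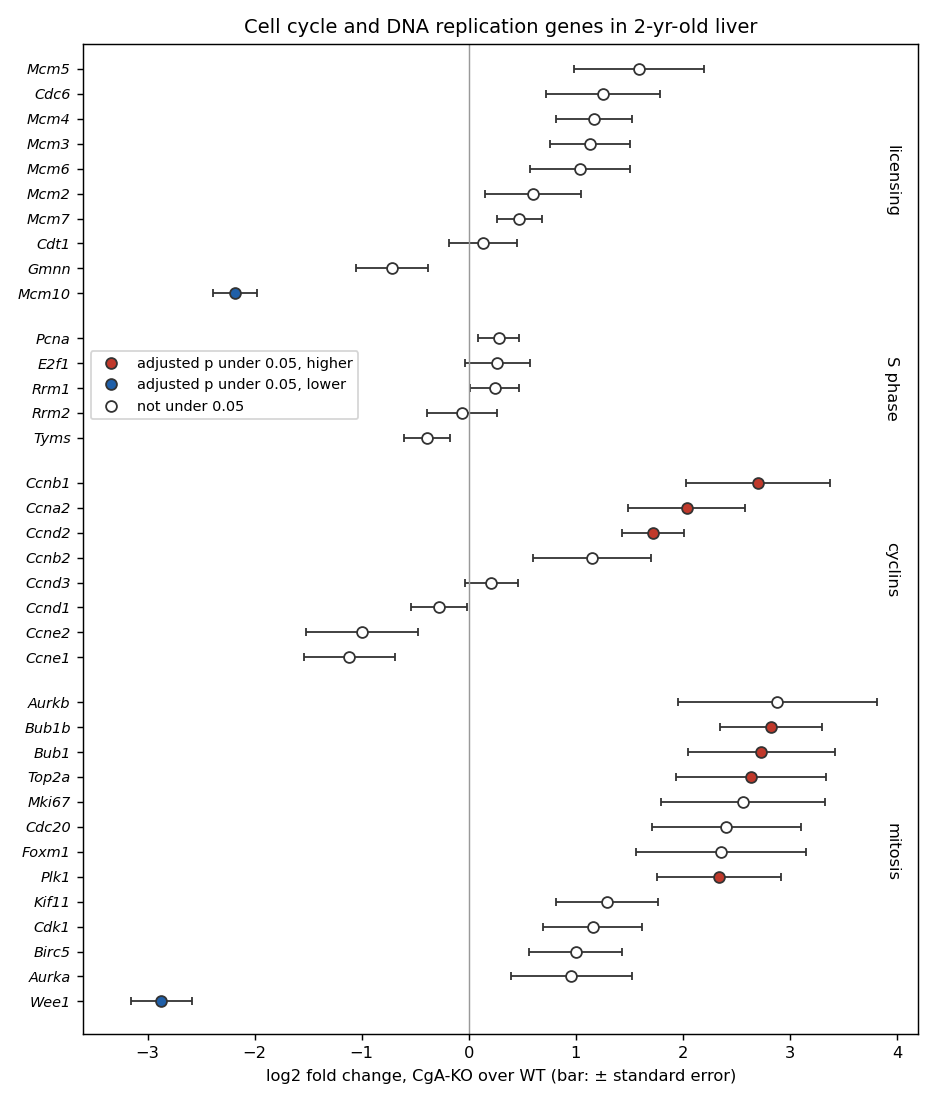
Log2 fold change of CgA-KO over WT (x axis) for each of the 36 members (y axis), grouped by role, with bars of 1 standard error. Filled points passed an adjusted p under 0.05 by edgeR, red for higher and blue for lower. Mcm10 (-2.18) and Wee1 (-2.87) are the 2 blue points, and the mitosis genes other than Wee1 all sit to the right of 0.

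How many members were called rested on single libraries. Without WT 1 the count was 19, and without any one of the other libraries it was 4 or 5. WT 1 was the highest WT library in 26 of 36 members and in 11 of the 13 mitosis members. CgA-KO 3 was the highest CgA-KO library in 23 members and CgA-KO 1 in 1. Mcm10, Wee1, Ccnd2 and Bub1b were called in each of these 6 fits. The calls of Ccna2, Top2a, Bub1 and Plk1 were lost in edgeR when any library other than WT 1 was left out, with adjusted p up to 0.152, 0.180, 0.154 and 0.126, and that of Ccnb1 when any library other than WT 1 and CgA-KO 1 was, with adjusted p up to 0.141.

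**Figure D2:**
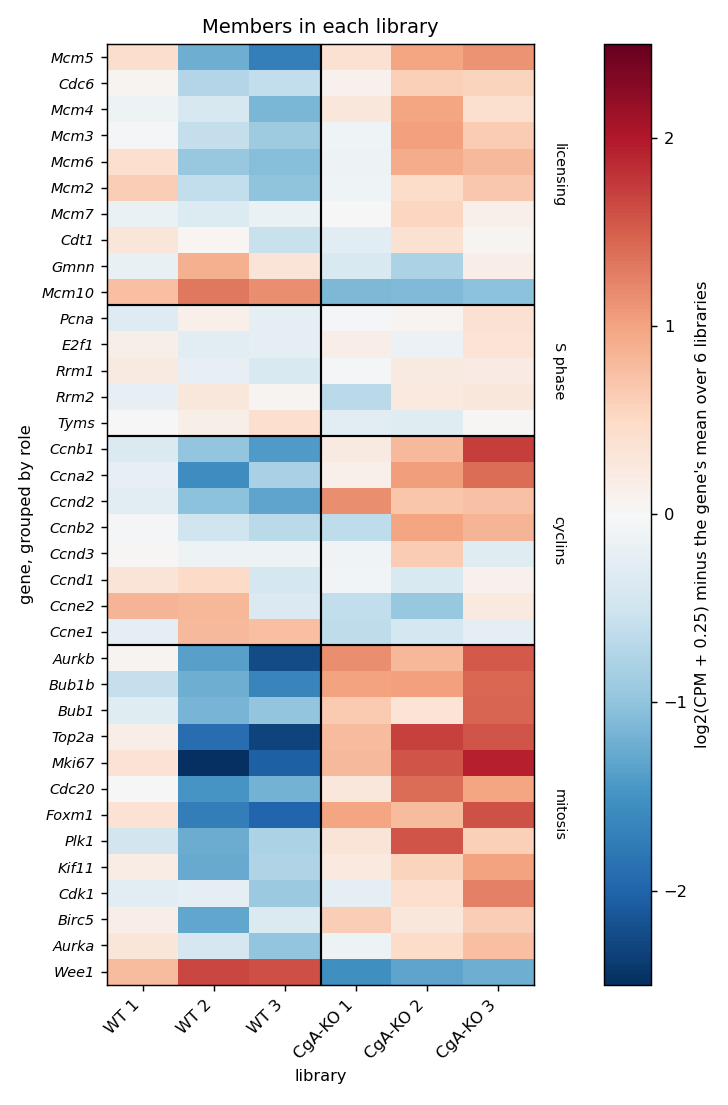
Level of each member in each library, as log2(CPM + 0.25) minus the gene's mean over the 6 libraries (colour scale), with rows grouped by role and columns by library. Mcm10 and Wee1 are red in the WT columns and blue in the CgA-KO columns, the other mitosis genes are blue in WT 2 and WT 3 and mostly red in the CgA-KO columns, and WT 1 is paler than WT 2 and WT 3 in most mitosis rows.

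All 36 members passed the filter on low values, but 11 of them were over its cutoff of 0.436 CPM in fewer than 3 WT libraries and so passed through the CgA-KO libraries. These are Cdc6, Ccna2, Ccnb1, Top2a, Foxm1, Cdc20, Bub1, Bub1b, Aurka, Aurkb and Plk1, and 6 of them were called. Of the 25 members over the cutoff in all 6 libraries, 3 were called: Mcm10, Wee1 and Ccnd2. With no filter beyond a total of 1 count, 9 members were called, but Top2a was lost and Cdc20 gained.

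Among the licensing genes, Mcm10 was the called member of 10, and the list's median log2 fold change was 0.82. Mcm10 (chr2:4989714-5012791, minus strand, GRCm38) stood at 86.1, 127 and 114 CPM in the WT livers and at 23.4, 23.7 and 25.1 CPM in the CgA-KO livers. The lowest WT library was thus more than 3 times the highest CgA-KO library, and the CgA-KO livers lay close together. The means were 109 ± 21.1 and 24.1 ± 0.862 CPM (SD, n = 3), and edgeR gave a log2 fold change of -2.18 ± 0.204 with an adjusted p of 0.00247. Over the fits without 1 library the log2 fold change lay between -2.29 and -2.06, with edgeR's adjusted p between 0.00047 and 0.0155. No exon of another GENCODE gene overlaps an exon of Mcm10. Per kb of exon, Mcm10 was the member of highest level in WT liver, at 14.2 ± 2.75 CPM per kb (SD, n = 3), ahead of Pcna at 12.1 ± 2.02, a difference smaller than their spread. In CgA-KO liver it was 7th in order, at 3.13 ± 0.112 CPM per kb (SD, n = 3).

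The 6 genes of the helicase that Mcm10 helps to switch on were fitted in the other direction. Mcm2 to Mcm7 were all fitted higher in CgA-KO livers, by a median log2 fold change of 1.09, but 0 of 6 were called by edgeR (3 at an unadjusted p under 0.05), and DESeq2 called 2 of them, Mcm3 and Mcm4. Their summed level was 39.4, 23.5 and 21.7 CPM in WT livers and 36.2, 61.5 and 52.0 CPM in CgA-KO livers, so WT 1 overlapped CgA-KO 1. Mcm4 had 3.94, 3.19 and 1.82 CPM in WT and 5.34, 8.75 and 5.78 CPM in CgA-KO livers, with no overlap and an adjusted p of 0.0646 by edgeR. Mcm7 also did not overlap, with 11.8, 10.4 and 11.9 CPM in WT and 13.3, 19.5 and 14.5 CPM in CgA-KO livers, at a log2 fold change of 0.47 ± 0.21 and an adjusted p of 0.175 by edgeR. Mcm7 shares exon bases with Cops6 and Ap4m1 on the other strand and with Mir25 and Mir93, and the use of strand in the counting is not given in the sources used here. Mcm2, Mcm3, Mcm5 and Mcm6 overlapped between genotypes, with log2 fold changes of 0.60, 1.13, 1.59 and 1.04. Without WT 1, edgeR called Mcm2, Mcm3, Mcm4, Mcm5 and Mcm6.

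Mcm10 and the helicase genes can also be set against each other within a library, which no scaling factor touches. Counts of Mcm10 over the summed counts of Mcm2 to Mcm7 were 2.18, 5.41 and 5.27 in WT livers and 0.648, 0.386 and 0.482 in CgA-KO livers. Mcm10 therefore outnumbered the 6 genes together in each WT liver and was outnumbered by them in each CgA-KO liver. This is a ratio of counts and not of molecules, since the genes differ in length.

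The other licensing factors were not called. Cdc6, a loader of the helicase, was near the floor, at 0.627, 0.255 and 0.297 CPM in WT and 0.65, 1.01 and 0.986 CPM in CgA-KO livers (log2 fold change 1.25, adjusted p 0.157 by edgeR). Cdt1, the other loader, had nearly the same mean in both, 4.73 ± 1.43 and 5.14 ± 1.19 CPM (SD, n = 3), and its fitted log2 fold change of 0.13 ± 0.321 turned to -0.10 without WT 3 and to -0.01 without CgA-KO 2. Gmnn, its inhibitor, had 9.58, 20.6 and 13.8 CPM in WT and 8.40, 6.22 and 12.3 CPM in CgA-KO livers, overlapping, at a log2 fold change of -0.72 (adjusted p 0.197 by edgeR).

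S phase genes showed no called change, with 0 of 5 called by edgeR, 0 by DESeq2, 0 at an unadjusted p under 0.05 and a median log2 fold change of 0.24. Pcna, the sliding clamp of the replication fork, had 25.4, 34.5 and 27.2 CPM in WT and 31.2, 33.2 and 41.4 CPM in CgA-KO livers, and its log2 fold change was 0.28 ± 0.192. The genotypes overlapped in all 5 genes. Rrm1 and Rrm2, the subunits of ribonucleotide reductase, gave 0.24 ± 0.228 and -0.06 ± 0.326 in log2 fold change, and Rrm2 turned to 0.23 with library size alone as the scale. Tyms, which makes thymidylate, gave -0.39 ± 0.217, and E2f1, a transcription factor of S phase entry, gave 0.27 ± 0.304.

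Cyclin genes of the D, A and B types rose, 1 of each type. Of 8 cyclin genes, edgeR called Ccnd2, Ccna2 and Ccnb1 higher (37.5%) and none lower, beside 8.60% and 3.84% of all genes tested. Ccna2 and Ccnb1 passed the filter through the CgA-KO libraries, and their calls rested on single libraries. The list's median log2 fold change was 0.68. Ccnd2, a cyclin of G1, had 13.8, 8.08 and 6.52 CPM in WT livers and 37.6, 27.2 and 28.0 CPM in CgA-KO livers, with a gap between the groups. Its mean rose from 9.47 ± 3.83 to 30.9 ± 5.78 CPM (SD, n = 3), a log2 fold change of 1.72 ± 0.292 with an adjusted p of 0.00935 by edgeR. Antisense genes Gm43126 and 9330179D12Rik share exon bases with Ccnd2. The other D cyclins were not called: Ccnd1 had 24.3 ± 7.62 and 20 ± 3.34 CPM and Ccnd3 had 29.3 ± 1.94 and 33.9 ± 12.2 CPM in WT and CgA-KO livers (SD, n = 3), both overlapping. Their log2 fold changes were -0.28 and 0.21, and each changed sign in an alternative, Ccnd1 to 0.01 with library size alone and Ccnd3 to -0.084 without CgA-KO 2.

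Ccna2, the cyclin of S and G2 phase, had 1.34, 0.383 and 0.805 CPM in WT and 1.76, 3.58 and 4.62 CPM in CgA-KO livers, for a log2 fold change of 2.04 ± 0.546 and an adjusted p of 0.043 by edgeR. It shares exon bases with Exosc9 on the other strand. Ccnb1, a mitotic cyclin, had 0.537, 0.255 and 0.127 CPM in WT and 0.928, 1.52 and 3.09 CPM in CgA-KO livers, for 2.70 ± 0.674 and an adjusted p of 0.0331 by edgeR. In both genes the groups were apart, but CgA-KO 1 was the lowest of its group and came closest to WT 1. Ccnb2, the other mitotic cyclin, overlapped, at 0.942 ± 0.278 and 2.04 ± 1.13 CPM (SD, n = 3; log2 fold change 1.15, adjusted p 0.204 by edgeR). The E cyclins, which lead into S phase, were fitted lower without a call: Ccne1 had 1.25, 2.85 and 2.71 CPM in WT and 0.882, 1.05 and 1.26 CPM in CgA-KO livers (log2 fold change -1.11, adjusted p 0.121 by edgeR), and Ccne2 gave -1.0 with an adjusted p of 0.245 by edgeR. WT 1 and CgA-KO 3 were nearly level in Ccne1.

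The 13 mitosis genes gave a median of 2.36 in log2 fold change, and 8 of them passed the filter through the CgA-KO libraries (Top2a, Foxm1, Cdc20, Bub1, Bub1b, Aurka, Aurkb and Plk1). Wee1 fell, while the other 12 were all fitted higher, and in 10 of those 12 each CgA-KO library lay above each WT library, as it did in 2639 of the 13867 genes tested. Called higher by edgeR were Bub1b, Plk1, Bub1 and Top2a. Without Wee1, the summed level of the mitosis members was 23.9, 6.89 and 7.29 CPM in WT livers and 35.6, 50.7 and 63.3 CPM in CgA-KO livers, 3.93-fold in the means. WT 1 stood between the other WT libraries and CgA-KO 1.

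Wee1 (chr7:110122046-110143286, plus strand, GRCm38) had 12.6, 23.2 and 22.4 CPM in WT livers and 2.32, 2.73 and 2.91 CPM in CgA-KO livers. The lowest WT library was more than 4 times the highest CgA-KO library. The means were 19.4 ± 5.89 and 2.65 ± 0.303 CPM (SD, n = 3), with a log2 fold change of -2.87 ± 0.286 and an adjusted p of 0.00282 by edgeR. Per kb of exon it was 4th in WT and 27th in CgA-KO liver among the 36 members. Its target Cdk1, the kinase of mitotic entry, had 1.97, 2.09 and 1.19 CPM in WT and 2.04, 3.36 and 6.23 CPM in CgA-KO livers, overlapping, at a log2 fold change of 1.16 ± 0.465 and an adjusted p of 0.139 by edgeR. Counts of Wee1 over those of Cdk1 were 6.41, 11.1 and 18.9 in WT livers against 1.14, 0.811 and 0.468 in CgA-KO livers, so the ratio was below 1.2 in each CgA-KO liver and above 6 in each WT liver.

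Wee1 is also known as a gene of the circadian clock's output. Clock genes, chosen after their values were seen, moved beside it: Arntl, an activator of the clock, had 1.25, 0.553 and 0.635 CPM in WT and 19.5, 15.0 and 15.7 CPM in CgA-KO livers, at a log2 fold change of 4.44 (adjusted p 0.00164 by edgeR). Dbp and Per2, further clock genes, fell, with log2 fold changes of -2.80 and -2.74 (adjusted p 0.0165 and 0.00484 by edgeR), while Nr1d1 gave 0.21 (adjusted p 0.625 by edgeR). The labels give no hour of collection, and the part of the clock in the Wee1 difference was not tested.

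**Figure D3:**
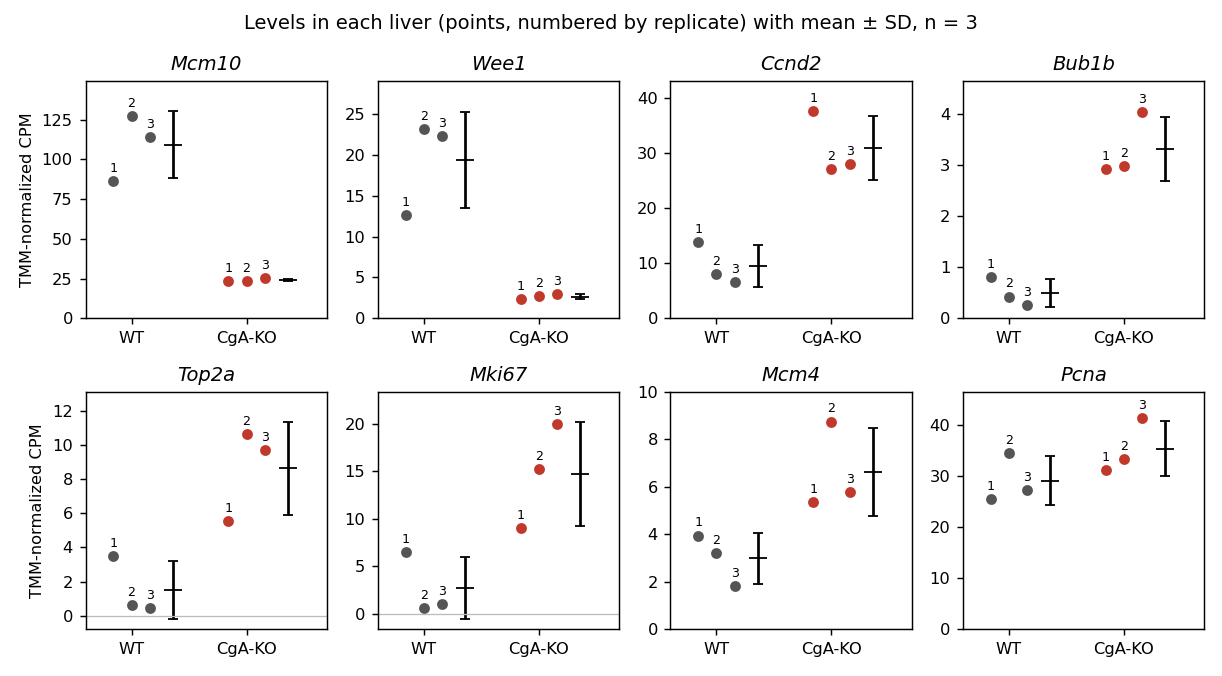
TMM-normalized CPM (y axis, linear) of 8 members in each liver, WT in grey and CgA-KO in red, numbered by replicate, with the mean ± SD of 3 livers beside the points. Mcm10 and Wee1 are lower and Ccnd2 and Bub1b higher in every CgA-KO liver, WT 1 is well above WT 2 and WT 3 in Top2a and Mki67, where the SD reaches below 0, and Pcna overlaps.

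Bub1b and Bub1 are genes of the spindle checkpoint. Bub1b had 0.806, 0.425 and 0.254 CPM in WT and 2.92, 2.98 and 4.03 CPM in CgA-KO livers, a gap of more than 3 times between the nearest libraries. The log2 fold change was 2.82 ± 0.478 with an adjusted p of 0.00935 by edgeR. Bub1 had 0.358, 0.0851 and 0.127 CPM in WT and 0.928, 0.698 and 1.79 CPM in CgA-KO livers, for 2.73 ± 0.686 and an adjusted p of 0.034 by edgeR. Of the WT libraries, 2 lay at or under the floor for Bub1. Plk1, the polo kinase of mitosis, had 0.537, 0.213 and 0.381 CPM in WT and 1.11, 2.98 and 1.39 CPM in CgA-KO livers, for 2.34 ± 0.577 and an adjusted p of 0.032 by edgeR. Here CgA-KO 2 was the high library.

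Top2a, the topoisomerase that untangles replicated DNA, and Mki67, the proliferation marker Ki-67, were apart between genotypes, and the first of them was called. Top2a had 3.49, 0.638 and 0.424 CPM in WT and 5.52, 10.6 and 9.73 CPM in CgA-KO livers, for a log2 fold change of 2.64 ± 0.702 and an adjusted p of 0.0421 by edgeR. Mki67 had 6.45, 0.596 and 1.02 CPM in WT and 8.96, 15.2 and 19.9 CPM in CgA-KO livers, for 2.56 ± 0.765 and an adjusted p of 0.0603 by edgeR, so it was not called. WT 1 was high in both genes. Without WT 1 the log2 fold changes were 4.05 and 4.21, with adjusted p of 0.00095 and 0.00098 by edgeR.

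Foxm1, Cdc20, Aurkb, Birc5 and Kif11 were apart between genotypes without passing edgeR's threshold. Foxm1, a transcription factor of mitotic genes, had 1.88, 0.255 and 0.169 CPM in WT and 3.06, 2.63 and 4.75 CPM in CgA-KO livers (log2 fold change 2.36, adjusted p 0.0851 by edgeR). Cdc20, an activator of the anaphase-promoting complex, had 0.806, 0.128 and 0.212 CPM in WT and 1.02, 2.50 and 1.84 CPM in CgA-KO livers (2.41, adjusted p 0.0552 by edgeR). In both, WT 1 was again the high WT library. Aurkb, the kinase of the chromosomal passenger complex, had 0.985 and 0.213 CPM in WT 1 and WT 2 and 0 counts in WT 3, beside 2.41, 1.87 and 3.18 CPM in CgA-KO livers (2.88, adjusted p 0.076 by edgeR). Birc5 (survivin), of the same complex, and Kif11, a spindle motor, gave 1.00 and 1.29 (adjusted p 0.165 and 0.113 by edgeR). Aurka, a spindle pole kinase, overlapped, at 0.641 ± 0.397 and 1.18 ± 0.416 CPM (SD, n = 3; 0.96, adjusted p 0.301 by edgeR). DESeq2 called Foxm1, Cdc20 and Aurkb, with adjusted p of 0.0219, 0.0162 and 0.0149. Without WT 1, edgeR called Mki67, Foxm1, Cdc20, Aurkb and Kif11.

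Other genes of the same processes were read from lists of 108 genes, of which 103 were tested and 16 called by edgeR (15.5%; 13 higher, 3 lower), beside 12.4% of all genes, with a median log2 fold change of 0.43. That count also rested on single libraries: it was 35 without WT 1, 3 without WT 2, 1 without WT 3, and 6, 6 and 4 without CgA-KO 1, 2 and 3. Genes of the kinetochore, spindle and cell division held 12 of the calls, 10 higher and 2 lower of 36 tested (33.3%), with a median of 1.62. All of those called higher except Incenp missed the filter's cutoff of 0.436 CPM in some WT library. They passed the filter through the CgA-KO libraries, where they are high. The replication genes outside the set, those of origin firing and the fork, held 2 of 41 tested (4.88%), with a median of 0.27. G1 regulators and inhibitors held 2 of 26 (7.69%), with a median of 0.26, so that both shares were below that of all genes.

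Among the kinetochore and spindle genes, Cenpe, a motor of the kinetochore, had 0.537, 0.17 and 0.297 CPM in WT and 1.81, 2.63 and 2.96 CPM in CgA-KO livers, for a log2 fold change of 2.97 ± 0.516 and an adjusted p of 0.0104 by edgeR. Incenp, the scaffold of the passenger complex, Prc1, which bundles microtubules at the midzone, and Melk, a mitotic kinase, rose by 1.95, 2.79 and 3.50 on the log2 scale (adjusted p 0.0174, 0.0183 and 0.0185 by edgeR). Melk had 0 counts in WT 1. Spc25, a subunit of the Ndc80 complex of the kinetochore, fell: it had 6.63, 11.0 and 8.13 CPM in WT and 1.81, 1.93 and 2.91 CPM in CgA-KO livers, at a log2 fold change of -1.96 ± 0.314 with an adjusted p of 0.0079 by edgeR. The gene Ndc80 of the same complex went the other way, at 1.60 ± 0.415 (adjusted p 0.0383 by edgeR). Its other subunits were not called by edgeR. Spc24 was fitted lower without overlap (-0.80, adjusted p 0.0697 by edgeR) and was called by DESeq2 (adjusted p 0.034). Nuf2 was fitted higher with overlap (1.72, adjusted p 0.155 by edgeR). Pttg1 (securin), which holds back the separation of chromatids, had 21.0, 22.4 and 23.2 CPM in WT and 10.7, 15.2 and 11.5 CPM in CgA-KO livers (-0.83, adjusted p 0.0265 by edgeR).

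Of the replication genes outside the set, Clspn (claspin), a mediator of the replication checkpoint, was called higher. It had 0.269, 0.17 and 0.212 CPM in WT and 0.836, 1.49 and 2.15 CPM in CgA-KO livers. The log2 fold change was 2.80 ± 0.556, with an adjusted p of 0.0157 by edgeR. Clspn missed the filter's cutoff of 0.436 CPM in each WT library and so passed through the CgA-KO libraries, where it is high. Rpa3, the small subunit of the single-strand binding protein, had 9.76, 21.5 and 10.4 CPM in WT and 6.82, 3.77 and 6.41 CPM in CgA-KO livers (-1.30 ± 0.365, adjusted p 0.0495 by edgeR). Of the G1 regulators, Cdkn1a (p21), an inhibitor of cyclin-dependent kinases, had 5.46, 1.19 and 3.22 CPM in WT and 40.7, 23.1 and 39.5 CPM in CgA-KO livers. It rose 10.9-fold, a log2 fold change of 3.44 ± 0.484 with an adjusted p of 0.0055 by edgeR, and its groups were far apart. Rbl1, a pocket protein that binds E2F factors, rose by 1.62 ± 0.379 (adjusted p 0.0265 by edgeR).

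**Figure D4:**
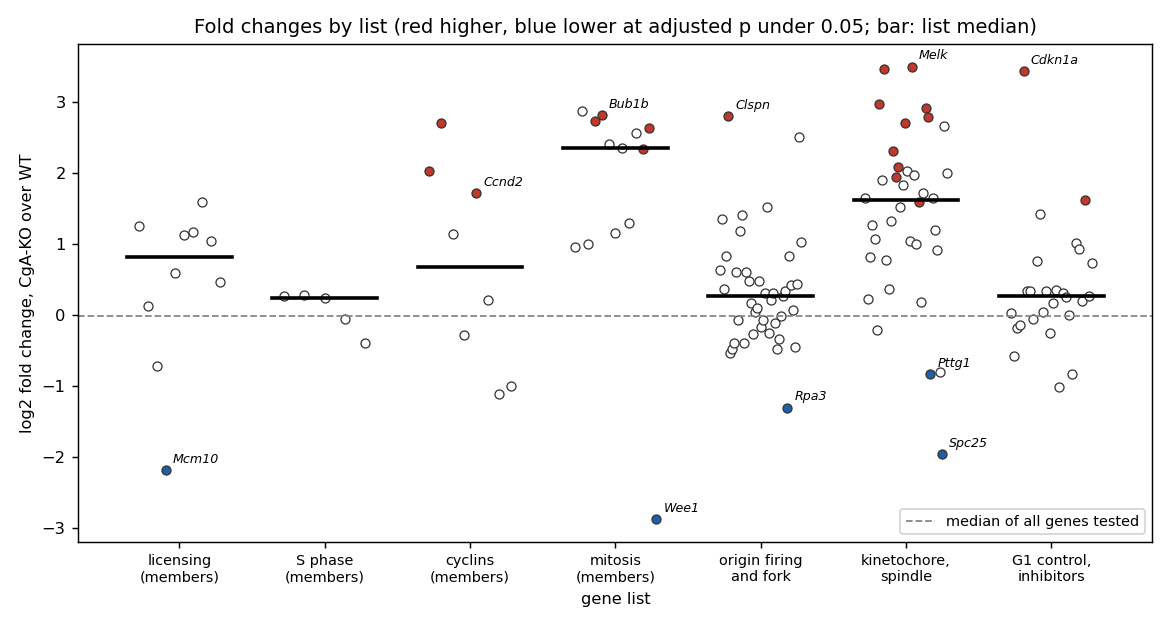
Log2 fold change of CgA-KO over WT (y axis) for each tested gene of the 4 member roles and of the 3 further lists (x axis). Red points are higher and blue points lower at an adjusted p under 0.05 by edgeR, black bars are list medians and the dashed line is the median of all genes tested. Among these 7 lists the medians of the mitosis members (2.36) and of the kinetochore and spindle genes (1.62) are the highest, and Mcm10, Wee1 and Spc25 lie far below theirs.

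Markers of blood and immune cells moved beside the mitosis genes. Markers of Kupffer cells, the resident macrophages of the liver, summed to 244, 120 and 105 CPM in WT and 1508, 1545 and 1137 CPM in CgA-KO livers, and 7 of 8 were called higher by edgeR. Monocyte markers summed to 192, 110 and 57.5 CPM in WT and 684, 478 and 584 CPM in CgA-KO livers (4 of 6 higher). Markers of T and NK cells summed to 15.9, 4.81 and 5.55 CPM in WT and 55.6, 140 and 53.7 CPM in CgA-KO livers (6 of 9 higher). No gene of these 3 lists was at 0 in any library, and WT 1 had the highest sum of the WT libraries in each, as in the mitosis genes. The order of the CgA-KO libraries differed between these lists. The mitosis sum was highest in CgA-KO 3, the monocyte sum in CgA-KO 1 and the T and NK cell sum in CgA-KO 2. The T and NK cell sums of CgA-KO 1 and CgA-KO 3 were nearly level. The Kupffer cell sum was lowest in CgA-KO 3. The part of these immune cells in the differences of the members was not tested.

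Markers of other cells gave other patterns. B cell markers summed to 52.6, 9.74 and 8.05 CPM in WT and 51.1, 14.1 and 13.2 CPM in CgA-KO livers (0 of 6 called, 0 at an unadjusted p under 0.05 and 0 by DESeq2), so they were high in WT 1 and CgA-KO 1. Markers of neutrophil precursors, cells that divide, summed to 261 CPM in CgA-KO 2 and to between 1.36 and 9.37 CPM in the other libraries, where up to 5 of the 7 were at 0. The part of these cells in the differences of the members was not tested. Without CgA-KO 2, 4 members were called, without WT 1, 19, and without both, an alternative chosen after the values were seen, 15. Erythroid precursor markers summed to 56.1, 102 and 78.3 CPM in WT and 35.6, 41.4 and 50.2 CPM in CgA-KO livers, 2 of 5 tested being called, 1 in each direction. Endothelial markers summed to between 84.2 and 104 CPM in WT and between 96.1 and 145 CPM in CgA-KO livers (2 of 5 called, 1 in each direction), and bile duct markers to between 5.80 and 12.2 CPM over all 6 (0 of 4 called, 1 at an unadjusted p under 0.05, 0 by DESeq2). Of 4 oncofetal genes, which mark fetal liver and liver tumours, H19 was called. It had 0.269, 0.425 and 0.466 CPM in WT and 1.11, 2.31 and 1.08 CPM in CgA-KO livers. The log2 fold change was 1.91 (adjusted p 0.043 by edgeR). In WT 1, H19 stood at the floor of 3 counts. It missed the filter's cutoff of 0.436 CPM in WT 1 and WT 2 and so passed through the CgA-KO libraries. The other oncofetal genes were not called, with log2 fold changes of 0.79 in Afp, 1.09 in Igf2 and -0.70 in Gpc3.

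**Figure D5:**
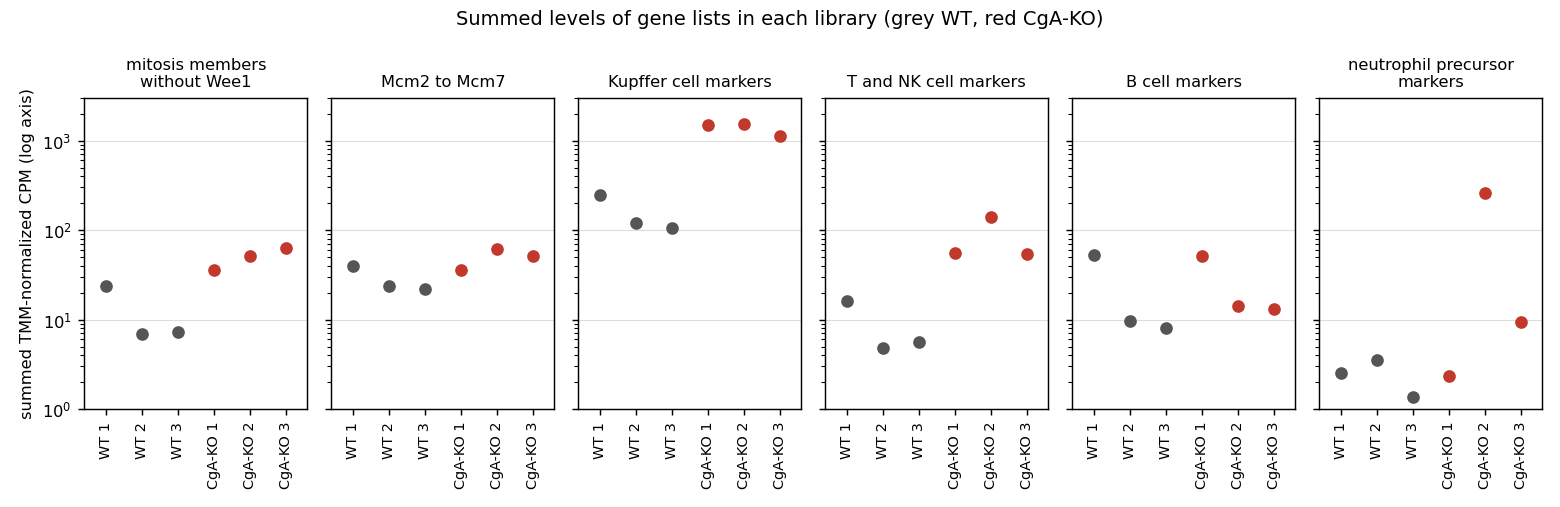
Summed TMM-normalized CPM (y axis, log scale, shared by the panels) of 2 groups of members and 4 lists of cell markers in each library, WT in grey and CgA-KO in red. The mitosis members, Kupffer cell markers and T and NK cell markers are higher in each CgA-KO library than in each WT library, Mcm2 to Mcm7 overlap, B cell markers are high in WT 1 and CgA-KO 1, and neutrophil precursor markers are high in CgA-KO 2.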

How the data were processed

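Livers of 6 mice, 3 per genotype, were sequenced after selection for poly(A), 1 library per mouse. The authors quantified reads with Salmon 1.4.0 at the transcript level on the GRCm38 transcriptome, and the deposited table holds whole-number counts per gene symbol, without normalization. The step from transcripts to genes is not given in the sources used here. Libraries held 10558616 to 31087453 counts. The p-values weigh the difference between genotypes against the spread between these livers, which edgeR moderates with information from all genes.

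The test was that of edgeR 4.0.16 under R 4.3.3 (filterByExpr with a minimum count of 10, TMM factors from 0.756 to 1.12, robust quasi-likelihood F test). Standard errors are the size of a log2 fold change over the square root of F. Alternatives were DESeq2 1.42.0, limma-voom (limma 3.58.1), library size alone, upper-quartile factors, 2 other filters, a replicate block, a threshold of 0.01 and leaving out each library. On simulated data, edgeR called 26.0% of genes changed by 1 and 81.4% of genes changed by 2 on the log2 scale. Genes left unchanged made up 2.80% of edgeR's calls there, 3.92% of limma-voom's and 14.5% of DESeq2's. The changed genes were few, split evenly up and down and drawn from the genes that pass the filter. These shares therefore need not hold for members at low levels. Positions and exon lengths are from GENCODE M21 (GRCm38). The text names all members, up to 5 called genes of smallest adjusted p from each further list, and marker lists by sums. Ndc80, Spc24, Nuf2, Pttg1, the clock genes and the Mcm3 promoter were named after their values were seen. The members and lists were chosen with earlier results of these data known. A further list that was read is not reported here.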

Additional observations from a re-analysis of the deposited data

How the results depend on the processing

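Against 9 members called by edgeR, DESeq2 called 14, limma-voom 15, a filter of at least 10 counts in every library 3 (of 26 tested), a threshold of 0.01 4, and fits without 1 library 4 to 19 (19 without WT 1). Without WT 1 and CgA-KO 2, chosen after the data were seen, the count was 15. Library size alone, upper-quartile factors and no filter gave 7, 9 and 9. Of the further genes, 16 were called, against 28 by DESeq2, 8 with at least 10 counts in every library, 2 at 0.01, 1 to 35 without 1 library (1 without WT 3, 35 without WT 1) and 26 without WT 1 and CgA-KO 2. The median log2 fold change of the members, 1.09, fell to 0.41 with at least 10 counts in every library, which leaves out the lowest genes, and lay between 0.91 and 1.43 without 1 library. Signs turned in 4 members that were not called: Cdt1 (-0.10 to 0.37 without 1 library), Rrm2 (0.23 with library size alone, 0.0018 with upper-quartile factors, -0.19 to 0.23 without 1 library, -0.27 without WT 1 and CgA-KO 2), Ccnd1 (0.0051 with library size alone) and Ccnd3 (-0.084 to 0.42 without 1 library, -0.02 without WT 1 and CgA-KO 2). The cause was not tested. Library size alone moved the median of all genes from -0.01 to 0.26 on the log2 scale.

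Deviations of same-numbered libraries from their genotype means correlated at 0.199, 0.0127 and -0.0659. With 3 libraries per genotype these values depend on each other, so they cannot exclude a pairing by replicate number. With a replicate block, 4 members (Mcm10, Wee1, Ccnd2 and Bub1b) and 11 further genes were called. Mcm10, Wee1 and Ccnd2 were called in every setting run, and Bub1b in each that tested it. Depth limits the members Ccnb1, Cdc20, Bub1 and Aurkb, where 1 or more WT libraries were at or under the floor of 3 counts. The same holds for Clspn and Melk, of the further genes described, and for the called oncofetal gene H19.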

Other observations

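Genes of cohesin, the ring that holds sister chromatids together, were added as a list after the files were at hand. Of 15 cohesin genes, 0 were called by edgeR, 0 by DESeq2 and 3 were under an unadjusted p of 0.05, beside 29.1% of all genes, and the median log2 fold change was 0.18. Summed cohesin levels were 376, 405 and 418 CPM in WT livers and 460, 412 and 433 CPM in CgA-KO livers, so the genotypes overlapped.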
